A study of Arabidopsis thaliana with 24 samples.

Results

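The genes described here are 8 genes of Arabidopsis thaliana, chosen by locus identifier: the zinc finger genes ZAT6 (AT5G04340), ZAT10 (AT1G27730) and ZAT12 (AT5G59820), the touch genes TCH2 (AT5G37770) and TCH3 (AT2G41100), and the calmodulin-like genes CML37 (AT5G42380), CML38 (AT1G76650) and CML39 (AT1G76640). All 8 were found among the 33296 named rows of the table of read counts, and all 8 were among the 19437 genes with enough reads to be tested. The zinc finger genes encode C2H2 proteins of the ZAT family, most of which repress transcription, and their transcripts are known to appear quickly after cold, salt, strong light, wounding and oxidative stress. TCH genes were found as transcripts that rise when a plant is touched. TCH2 and TCH3, also called CML24 and CML12, encode calmodulin-like proteins, which bind calcium through EF hands. CML37, CML38 and CML39 encode small EF-hand proteins of the same wider family, which comprises calcium sensors without a catalytic part of their own. A rise of calcium in the cell is among the first events after touch, wounding or an osmotic change, and transcripts of both families are used as early readouts of such events.

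The samples were tips of the primary root of seedlings grown for 6 days. The study combined 2 genotypes, the Columbia wild type (Col-0, here WT) and brl3-2, a T-DNA insertion line (SALK_006024C) of the brassinosteroid receptor gene BRL3, with 2 treatments. Seedlings of all 4 groups were moved into liquid medium for 2 h, with DMSO in the mock groups and with zeocin, a DNA-breaking antibiotic of the bleomycin family, in the treated groups. The labels give the zeocin dose as 10 µM in the sample characteristics and as 2 µM in the treatment protocol, and none is used here. There were 3 libraries, described as biological replicates, in each of the 4 groups. The mock seedlings thus also went through the transfer to liquid medium, and no library of seedlings that were not transferred was analysed here. The mutant is represented by 1 insertion line.

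Library totals were 32668516 to 38276389 counts in 10 libraries, and 70212858 and 73481046 in WT mock 3 and WT zeocin 3. BRL3 stood at 0.697 to 1.26 CPM (the count over the TMM-scaled library total) in the 6 brl3-2 libraries and at 9.55 to 31.7 CPM in the 6 WT libraries, and SMR7, a cell cycle inhibitor gene of the DNA damage response, rose by 9.02 ± 0.19 on the log2 scale with zeocin in WT and by 8.71 ± 0.19 in brl3-2. Within WT, BRL3 itself was called higher with zeocin, by 1.36 on the log2 scale. Its difference between brl3-2 and WT was -3.45 in mock and -4.81 under zeocin. The root tip markers PLT1, PLT2, SCR, SHR and WOX5 were all detected in every library, with a summed level of 61.4 to 77.2 CPM. A list of 8 photosynthesis genes, as markers of shoot tissue, summed to 27.1 to 57.0 CPM in 11 libraries and to 267 CPM in brl3-2 mock 2, with 7 or 8 of the 8 genes detected in each library. Calls that were lost without brl3-2 mock 2 are named beside the result. In tissue samples such as these, a change in the number of cells of a type and a change in RNA per cell cannot be told apart.

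Taken per length of exon, the 8 genes covered a wide range of levels. The full exon length was used, also for TCH2 and TCH3, where 20.9% and 20.2% of it overlaps exons on the opposite strand. If reads there were not counted, the levels of TCH2 and TCH3 are too low, which was not tested. In WT mock root tips TCH3 stood highest, at 34.9 ± 22.3 CPM per kilobase of exon (SD, n = 3), followed by ZAT6 at 17.1 ± 6.35, ZAT12 at 11.3 ± 1.74 and ZAT10 at 10.3 ± 4.01. CML38 stood at 5.50 ± 4.46 and TCH2 at 3.17 ± 1.21 CPM per kilobase. CML39 at 0.679 ± 0.393 and CML37 at 0.430 ± 0.236 CPM per kilobase were near the limit of detection, with 8 to 25 and 13 to 35 counts per library. The libraries of neighbours in this order overlapped, except between TCH2 (lowest library 1.93) and CML39 (highest 1.12 CPM per kilobase). TCH3 ranged from 11.7 to 56.2, ZAT6 from 11.7 to 24.1, ZAT10 from 6.34 to 14.4 and CML38 from 1.59 to 10.4 CPM per kilobase. ZAT12 in its lowest library stood at 9.56 and TCH2 in its highest at 4.34 CPM per kilobase.

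**Figure D1:**
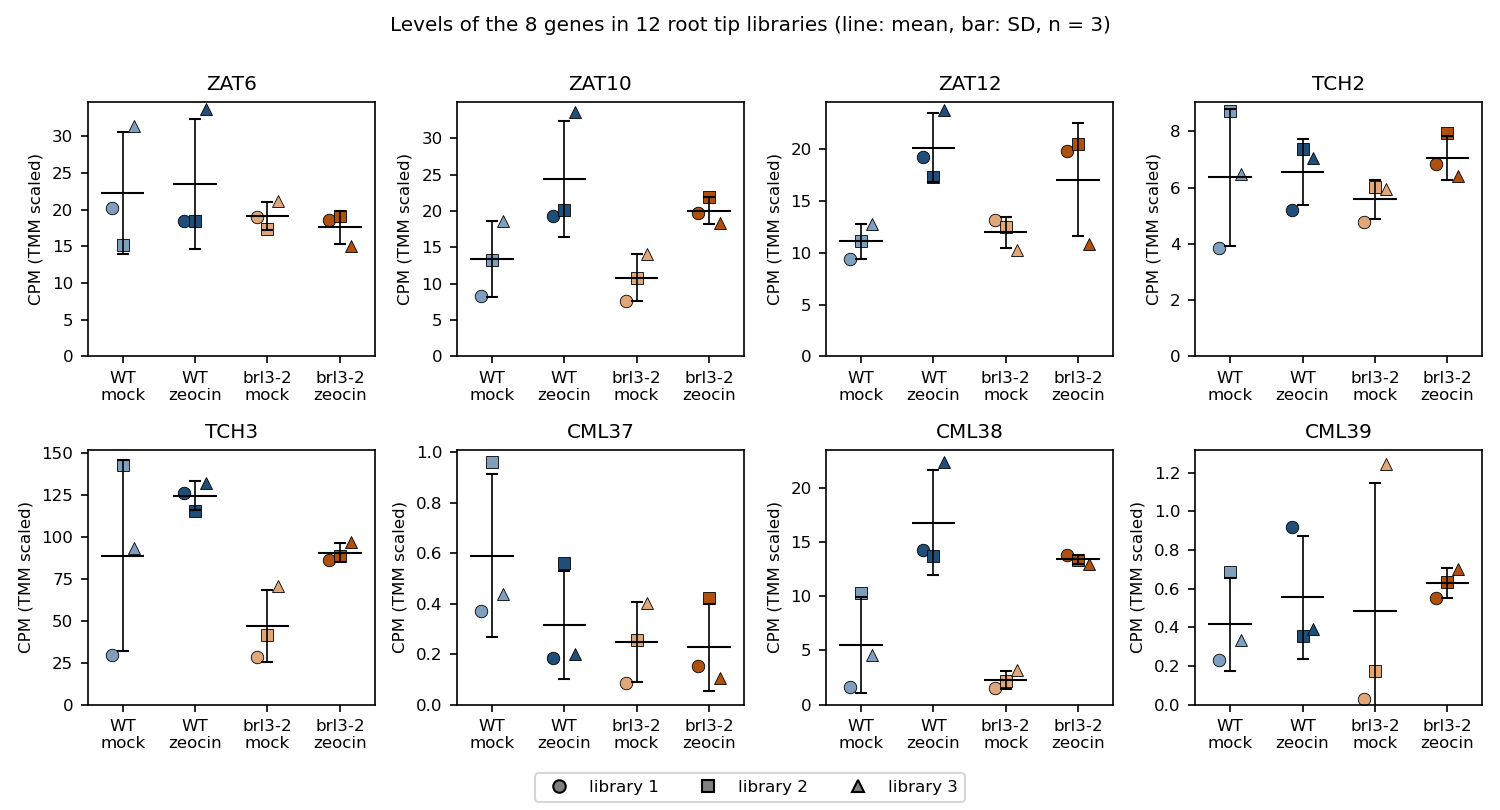
Level of each of the 8 genes in the 12 libraries, in CPM with TMM scaling (linear axes that differ between panels), by group. Points are libraries, with the shape giving the library number, lines are means and bars are SDs (n = 3), cut off at 0. CML38 is the gene whose 6 zeocin libraries (13.0 to 22.4 CPM) all lie above its 6 mock libraries (1.54 to 10.3 CPM).

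Zeocin against mock, averaged over both genotypes, asks how the genes answered to the DNA-breaking agent within 2 h. CML38, ZAT10 and ZAT12 rose, and the other 5 genes did not pass the test. With all 12 libraries in 1 fit, 3 of the 8 genes were called higher (edgeR quasi-likelihood test, Benjamini-Hochberg adjusted p under 0.05), where 7.2% of all tested genes were called higher and 3.04% lower. The median log2 change was 0.54 over the 8 genes and -0.01 over all tested genes. The 8 genes were chosen with earlier results of these data known, so these comparisons with all genes only describe them. Without brl3-2 mock 2, 2 of the 8 genes were called, since ZAT10 then missed the threshold (log2 change 0.88, edgeR adjusted p = 0.052). In WT alone 1 of the 8 genes, ZAT12, was called higher (background 4.07%), and in brl3-2 alone 1, CML38 (background 4.32%). Without brl3-2 mock 2 none was called in either genotype alone.

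**Figure D2:**
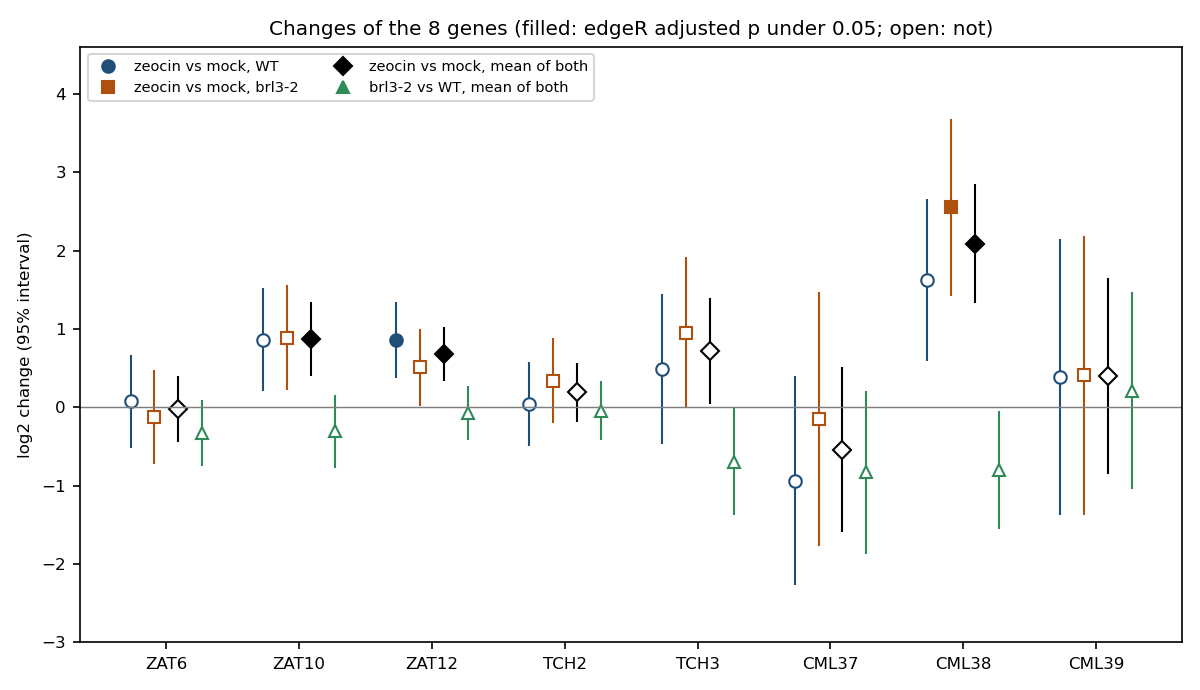
Log2 change of each gene with its 95% interval, for zeocin against mock in WT (circles), in brl3-2 (squares) and averaged over both genotypes (diamonds), and for brl3-2 against WT averaged over both treatments (triangles). Filled symbols passed the edgeR test at an adjusted p under 0.05: ZAT12 in WT, CML38 in brl3-2, and ZAT10, ZAT12 and CML38 in the average over genotypes.

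CML38 showed the largest change of the 8 genes. It encodes a calmodulin-like protein known for its induction by low oxygen and by wounding. In WT mock libraries 1, 2 and 3 it stood at 1.58, 10.3 and 4.52 CPM, and in the WT zeocin libraries at 14.3, 13.7 and 22.4 CPM. The brl3-2 libraries held 1.54, 2.15 and 3.17 CPM in mock and 13.8, 13.4 and 13.0 CPM under zeocin. The groups did not overlap in either genotype, and CML38 was the 1 gene of the 8 for which all 6 zeocin libraries lay above all 6 mock libraries, as they did for 5.61% of all tested genes. The mean over genotypes was 4.26-fold higher with zeocin (log2 2.09 ± 0.35, edgeR adjusted p = 0.0018). Within brl3-2 alone, CML38 rose by 2.55 ± 0.51 (edgeR adjusted p = 0.011), which missed the threshold without brl3-2 mock 1 (2.33, 0.065) or brl3-2 mock 2 (2.52, 0.055). The WT change was 1.63 ± 0.47 (edgeR adjusted p = 0.084). WT mock 2, at 10.3 CPM, lay close to the zeocin libraries, and without it the WT change was 2.41 and passed the test (edgeR adjusted p = 0.0047).

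Under zeocin CML38 stood at 16.8 ± 4.86 CPM in WT and at 13.4 ± 0.439 CPM in brl3-2 (SD, n = 3), a difference of -0.33 on the log2 scale with a 95% interval from -1.33 to 0.66. CML38 lies on the minus strand of chromosome 1, bases 28766750 to 28768138 in TAIR10.1, and 883 bases separate it from CML39, which is on the same strand at bases 28765254 to 28765866. The neighbours did not share their level: CML39 had 1 to 40 counts per library. Their starts are shown because they lie next to each other on the chromosome while CML38 was called and CML39 was not. The sequences are from RefSeq (TAIR10.1), from 250 bases before to 50 bases after the annotated start, 5′ to 3′ on the strand of the gene. Capitals mark matches to the W box letters TTGACC or TTGACT, the core bound by WRKY proteins. Positions are counted from 1 at the annotated start and from -1 at the base before it. CML38 holds TTGACC at -204 to -199, letters that 14.2% of 27443 promoters hold on either strand, and CML39 holds none of the motifs searched.
CML38, chr1:28768089-28768388, minus strand: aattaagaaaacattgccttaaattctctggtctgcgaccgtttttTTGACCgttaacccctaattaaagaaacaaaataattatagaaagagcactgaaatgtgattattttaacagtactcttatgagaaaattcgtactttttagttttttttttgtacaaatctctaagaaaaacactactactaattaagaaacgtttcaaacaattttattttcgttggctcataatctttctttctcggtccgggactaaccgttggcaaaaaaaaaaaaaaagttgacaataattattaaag
CML39, chr1:28765817-28766116, minus strand: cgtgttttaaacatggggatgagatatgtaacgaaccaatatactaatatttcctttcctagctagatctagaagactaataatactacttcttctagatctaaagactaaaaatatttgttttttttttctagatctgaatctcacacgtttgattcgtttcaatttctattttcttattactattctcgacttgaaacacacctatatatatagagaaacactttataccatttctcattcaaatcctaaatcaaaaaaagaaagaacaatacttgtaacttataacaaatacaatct

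CML39, which is known for a part in seedling establishment, had few reads. It stood at 0.229, 0.688 and 0.332 CPM in WT mock and at 0.919, 0.355 and 0.389 CPM in WT zeocin libraries. In brl3-2 mock it had 1, 6 and 40 counts, which is 0.0291, 0.172 and 1.24 CPM, and in brl3-2 zeocin 0.549, 0.636 and 0.701 CPM. The groups overlapped in both genotypes, and brl3-2 mock 3 lay above every other library. The mean change over genotypes was 0.40 ± 0.57 (95% interval -0.85 to 1.65, edgeR adjusted p = 0.79). Without brl3-2 mock 3 the change within brl3-2 was 2.61 in place of 0.41, and it was not called in either fit (edgeR adjusted p = 0.091 and 0.92). CML37, which has been tied to wounding and jasmonate, had 3 to 35 counts per library and stood at 0.591 ± 0.324 CPM in WT mock and 0.316 ± 0.214 CPM in WT zeocin (SD, n = 3). Its levels in brl3-2 were 0.250 ± 0.159 and 0.227 ± 0.173 CPM. Its mean change was -0.54 ± 0.48 (95% interval -1.59 to 0.51, edgeR adjusted p = 0.61), and its libraries overlapped between all groups compared. On the linear scale these intervals run from 0.331-fold to 1.42-fold for CML37 and from 0.554-fold to 3.15-fold for CML39. The reference table lists CML39 also as another name of the CML37 locus, and the names here follow the locus identifiers given above.

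ZAT10, also called STZ, encodes a repressor first described for salt tolerance. It stood at 8.26, 13.2 and 18.7 CPM in WT mock and at 19.4, 20.2 and 33.7 CPM in WT zeocin libraries. The mutant libraries held 7.61, 10.8 and 14.1 CPM in mock and 19.8, 22.0 and 18.4 CPM under zeocin. Mock and zeocin libraries did not overlap within either genotype, although WT mock 3 lay above 1 of the brl3-2 zeocin libraries. The change was 0.86 ± 0.30 in WT (edgeR adjusted p = 0.18) and 0.89 ± 0.31 in brl3-2 (0.15), neither of which passed the test. Averaged over the genotypes, ZAT10 rose 1.83-fold (log2 0.88 ± 0.21, edgeR adjusted p = 0.022). This call was lost in 3 of the fits that left out 1 library: brl3-2 mock 1 (0.77, 0.057), mock 2 of the same genotype (0.88, 0.052) and brl3-2 zeocin 2 (0.84, 0.057). In WT alone it was called without WT mock 3 (1.19, edgeR adjusted p = 0.036).

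ZAT12, also called RHL41, is known for its response to strong light and hydrogen peroxide. It stood at 9.38, 11.1 and 12.8 CPM in WT mock and at 19.2, 17.3 and 23.8 CPM in WT zeocin libraries. In brl3-2 it stood at 13.1, 12.4 and 10.3 CPM in mock and at 19.8, 20.5 and 10.8 CPM under zeocin. The groups did not overlap in WT, whereas brl3-2 zeocin 3 lay among the mock libraries. ZAT12 rose by 0.86 ± 0.22 in WT (edgeR adjusted p = 0.049), just inside the threshold, and by 0.68 ± 0.16 as the mean over genotypes (1.61-fold, edgeR adjusted p = 0.015). The WT call was lost in 10 of the 12 fits that left out 1 library, with changes of 0.71 to 0.95 and edgeR adjusted p of 0.054 to 0.18, and was kept without WT mock 3 (0.98, 0.038) and without brl3-2 zeocin 3 (0.86, 0.0056). The brl3-2 change was 0.51 ± 0.22 (edgeR adjusted p = 0.30), and 0.75 without brl3-2 zeocin 3 (edgeR adjusted p = 0.023).

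ZAT6, known for parts in root growth and in phosphate and cadmium responses, did not follow them. It stood at 20.2, 15.2 and 31.4 CPM in WT mock and at 18.4, 18.4 and 33.7 CPM in WT zeocin libraries. The levels in brl3-2 were 19.0, 17.3 and 21.2 CPM in mock and 18.6, 19.1 and 15.1 CPM under zeocin. The groups overlapped in both genotypes, and WT mock 3 and WT zeocin 3, the libraries with the largest totals, were the highest of their groups. The mean change was -0.02 ± 0.19, with a 95% interval from -0.45 to 0.40 (edgeR adjusted p = 0.97).

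The starts of the zinc finger genes are shown because ZAT6 and ZAT10 share a stretch there although ZAT10 was called and ZAT6 was not. They are from RefSeq (TAIR10.1), cut as for CML38. In ZAT6 and ZAT10 the capitals mark the G box CACGTG and, after a gap of 5 bases, a W box read on the opposite strand (AGTCAA in ZAT6 for the box TTGACT and GGTCAA in ZAT10 for the box TTGACC). In ZAT6 they also mark the ends of the palindrome bound by SOG1 (CTT and AAG with 7 bases of any kind between them), which is the main regulator of the plant DNA damage response. In ZAT12 they mark ACGCGG, which is CCGCGT on the opposite strand, a CGCG box of the kind bound by CAMTA proteins, the calmodulin-binding transcription activators.
ZAT6, chr5:1217313-1217612, minus strand: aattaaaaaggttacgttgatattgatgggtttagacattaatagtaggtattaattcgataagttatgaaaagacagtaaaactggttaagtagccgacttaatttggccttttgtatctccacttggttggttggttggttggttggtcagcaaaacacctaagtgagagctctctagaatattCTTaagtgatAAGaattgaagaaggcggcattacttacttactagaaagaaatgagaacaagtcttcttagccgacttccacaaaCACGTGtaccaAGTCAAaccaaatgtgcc
ZAT10, chr1:9649274-9649573, minus strand: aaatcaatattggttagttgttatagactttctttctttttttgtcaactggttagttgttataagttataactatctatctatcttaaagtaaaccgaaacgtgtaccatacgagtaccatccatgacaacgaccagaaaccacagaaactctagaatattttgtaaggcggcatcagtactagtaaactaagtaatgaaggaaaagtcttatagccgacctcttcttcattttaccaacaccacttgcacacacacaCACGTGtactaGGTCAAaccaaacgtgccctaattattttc
ZAT12, chr5:24102564-24102863, plus strand: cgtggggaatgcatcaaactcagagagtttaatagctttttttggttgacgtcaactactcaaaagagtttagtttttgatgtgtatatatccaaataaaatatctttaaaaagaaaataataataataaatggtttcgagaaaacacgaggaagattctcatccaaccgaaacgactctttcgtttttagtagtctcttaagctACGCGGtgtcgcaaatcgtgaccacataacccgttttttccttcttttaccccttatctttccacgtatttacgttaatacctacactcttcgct
From the first base of the G box on, 26 of 29 bases were identical in ZAT6 and ZAT10. The G box begins 22 bases from the start of ZAT6 and 10 bases from the start of ZAT10, counted from 1 at the annotated start, so in both the stretch lies within the part annotated as transcribed. Of 27443 promoters of the same length, 7.68% hold CACGTG, 21.8% TTGACT, 14.2% TTGACC, 11.8% the SOG1 palindrome and 2.27% CCGCGT, each counted on both strands. The SOG1 palindrome was found in 2 of the 8 genes, ZAT6 and CML37, neither of which was called.

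TCH3 had the highest mean level per length of the 8 genes in each of the 4 groups, and its mock libraries were spread widely. It encodes a calmodulin-like protein with more EF hands than calmodulin. In WT it stood at 29.7, 143 and 93.6 CPM in mock and at 126, 115 and 132 CPM under zeocin. In brl3-2 it stood at 28.2, 41.7 and 70.5 CPM in mock and at 86.3, 88.8 and 97.1 CPM under zeocin. The zeocin libraries of each genotype lay close together, while the WT mock libraries spread from below all of the zeocin libraries to above all of them. The groups did not overlap in brl3-2, where the change was 0.95 ± 0.44 (edgeR adjusted p = 0.34), and overlapped in WT, where it was 0.49 ± 0.44 (0.77). The mean change of 0.72 ± 0.31 did not pass the test either (95% interval 0.04 to 1.40, edgeR adjusted p = 0.20).

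TCH2 stood at 3.87, 8.72 and 6.50 CPM in WT mock and at 5.21, 7.37 and 7.07 CPM in WT zeocin libraries. In brl3-2 it stood at 4.77, 6.04 and 5.94 CPM in mock and at 6.84, 7.94 and 6.41 CPM under zeocin. The brl3-2 groups did not overlap and the WT groups did. The mean change was 0.19 ± 0.17 (95% interval -0.19 to 0.57, edgeR adjusted p = 0.62). Non-overlap with zeocin higher was thus seen for 3 of the 8 genes in WT (ZAT10, ZAT12 and CML38; background 9.86%), for 4 in brl3-2 (ZAT10, TCH2, TCH3 and CML38; background 13%), and for ZAT10 and CML38 in both genotypes (background 6.85%).

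The start of TCH2 is shown because it holds 2 copies of the 8-base palindrome AACGCGTT, at -84 to -77 and at -65 to -58 from the start, while its transcript was not called. Each copy holds CGCGTT, the rapid stress response element, on both strands and, overlapping it, the CAMTA-bound box ACGCGT. The sequence is from RefSeq (TAIR10.1), with the palindromes in capitals.
TCH2, chr5:14999570-14999869, minus strand: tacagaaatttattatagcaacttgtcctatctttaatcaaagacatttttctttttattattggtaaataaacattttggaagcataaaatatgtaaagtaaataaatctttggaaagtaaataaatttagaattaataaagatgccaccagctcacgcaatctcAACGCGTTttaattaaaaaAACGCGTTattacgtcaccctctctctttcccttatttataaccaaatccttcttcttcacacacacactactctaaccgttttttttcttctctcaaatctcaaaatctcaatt
CGCGTT is in 3.4% of the 27443 promoters and ACGCGT in 2.1%, and at least 1 of these boxes or the box CCGCGT is in 5.64% of them and in 2 of the 8 genes, TCH2 and ZAT12. The search found none of its motifs within this window in TCH3.

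Both touch genes lie beside relatives, which allows a comparison with neighbours on the chromosome. CAM2, a calmodulin gene, lies 482 bases from TCH3 (chromosome 2, bases 17137037 to 17139700, plus strand), and AT2G41090, of the calmodulin-like list, 37 bases from it. CAM1 lies 4846 bases from TCH2 (chromosome 5, bases 14997514 to 14999619, minus strand). CAM2 stood at 34.1 ± 11.8 CPM in WT mock and 39.5 ± 3.03 CPM in WT zeocin (SD, n = 3; mean change over genotypes 0.25 ± 0.14, edgeR adjusted p = 0.33), and CAM1 at 178 ± 24.4 and 187 ± 6.55 CPM (0.07 ± 0.06, edgeR adjusted p = 0.62). The calmodulin genes did not pass the test. AT2G41090 stood near 1 CPM, and its mean change was 0.44 ± 0.19 (edgeR adjusted p = 0.20). Exons on the opposite strand overlap 20.9% of the TCH2 exons, 20.2% of the TCH3 exons and 47.6% of the CAM2 exons. The other 6 genes described here have no such overlap. Whether the counting used strand is not given in the sources used here. CML30, AT3G59440, AT1G12310 and ERF105, with 100% of their exons overlapped in this way, had 0 counts in every library. So did AT1G18530, with 97.5% overlapped. Some genes without such overlap, AT1G32250, AT4G35280 and CBF1, also had 0 counts in every library. Whether reads in the overlapped stretches were left out, or counted for either gene, was not tested.

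The mock libraries of one group differed from each other in a shared order. Mock library 1 was the lowest of its group in both genotypes for 6 of the 8 genes, all but ZAT6 and ZAT12, against 10.6% of all tested genes. This order was noticed after the values were seen. In WT, mock 1 was lowest for 7 of the 8 genes (25.8% of all tested genes) and mock 2 highest for 5 (28.9%). In brl3-2, mock 1 was lowest for 6 (30.3%) and mock 3 highest for 6 (38.6%). The same order, with mock 1 lowest in both genotypes, was seen for 7 of 17 tested genes of a list of rapid touch, wound and stress genes, for 6 of 25 other calmodulin-like genes and for 1 of 12 other ZAT and AZF genes. The labels do not say that a library number marks a shared day or plate, and what sets the order was not tested.

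The spread among libraries was smaller under zeocin than in mock for TCH3 and CML38. For TCH3 the pooled SD of log2 CPM within groups was 0.952 in mock, above that of 99.0% of tested genes, and 0.0955 under zeocin, above that of 31.4%. For CML38 it was 1.01 in mock, above that of 99.2% of tested genes, and 0.279 under zeocin, still above that of 79.7%. Both genes were thus far less even among mock libraries than among zeocin libraries, with 4.82-fold between the lowest and the highest WT mock library for TCH3 and 6.52-fold for CML38. The SD was larger in mock than under zeocin for 6 of the 8 genes, against 64.9% of all tested genes, and the median SD over all genes was 0.169 in mock and 0.137 under zeocin. ZAT12 went the other way, with 0.206 in mock and 0.402 under zeocin, where brl3-2 zeocin 3 stood low. CML39 had 1.53 in mock and 0.505 under zeocin, and CML37 0.785 and 0.811, both with few counts. With 3 libraries per group these SDs are imprecise.

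**Figure D3:**
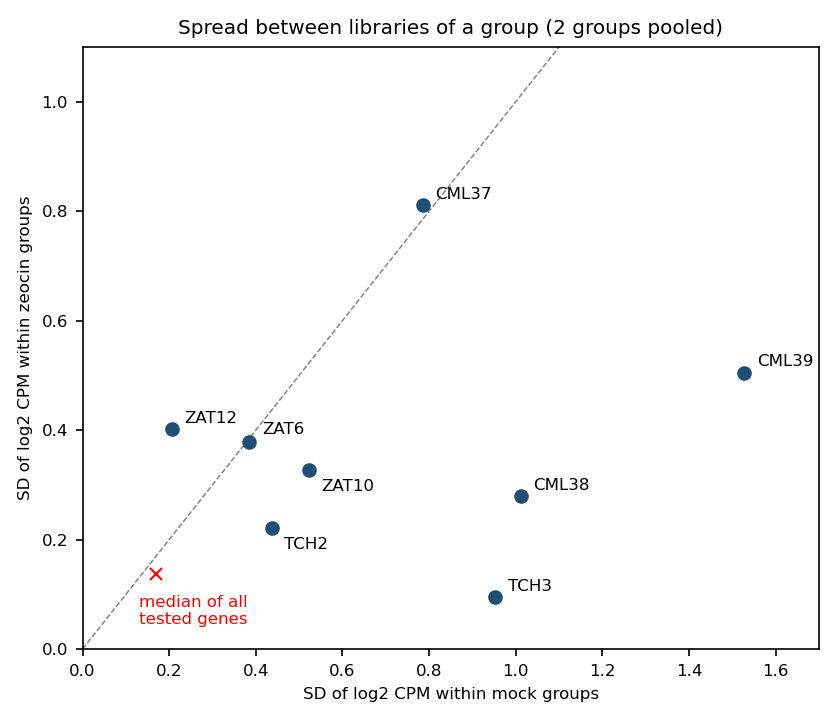
SD of log2 CPM among the libraries of a group, pooled over both genotypes, in mock (horizontal axis) and under zeocin (vertical axis), for the 8 genes (points) and for the median of all tested genes (cross). The dashed line marks equal spread. TCH3 (0.952 in mock, 0.0955 under zeocin) and CML38 (1.01 and 0.279) lie far below it, as does CML39 (1.53 and 0.505), which had few counts.

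brl3-2 against WT asks whether the receptor gene BRL3 bears on these transcripts. None of the 8 genes was called in mock (background 0.0257% of tested genes in either direction), under zeocin (0.0412%) or as the mean of both treatments (0.0566%). In mock, the genes furthest below WT were CML38, CML37 (-1.22 ± 0.64 on the log2 scale, with 3 to 35 counts per library) and TCH3. CML38 stood at 2.29 ± 0.824 CPM in brl3-2 and 5.46 ± 4.43 CPM in WT (SD, n = 3), a log2 difference of -1.26 ± 0.51 (95% interval -2.38 to -0.13, edgeR unadjusted p = 0.032, adjusted p = 1.0). Leaving out 1 library moved the CML38 difference between -1.68 and -0.47, the latter without WT mock 2, and it was called in none of these fits. TCH3 stood at 46.8 ± 21.6 and 88.8 ± 56.9 CPM, a difference of -0.92 ± 0.44 (95% interval -1.89 to 0.04), which was -0.41 without WT mock 2, and the libraries of the genotypes overlapped for both genes. Under zeocin TCH3 stood at 86.3 to 97.1 CPM in brl3-2 and at 115 to 132 CPM in WT. It was the 1 gene of the 8 whose genotypes did not overlap there, with brl3-2 lower (background 3.27%), yet the difference of -0.46 ± 0.44 did not pass the test (95% interval -1.41 to 0.50, edgeR adjusted p = 1.0). As the mean of both treatments, the difference was -0.79 ± 0.34 for CML38 (edgeR adjusted p = 0.93) and -0.69 ± 0.31 for TCH3 (0.95). For ZAT10, ZAT12, ZAT6 and TCH2 it lay between -0.33 and -0.04. For CML37 and CML39, with few counts, it was -0.83 ± 0.48 and 0.22 ± 0.57 (edgeR adjusted p = 1.0 for both).

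The difference between the zeocin responses of brl3-2 and WT was tested as an interaction. No gene in the table was called by edgeR (194 at an unadjusted p under 0.05), by DESeq2 (176) or by limma-voom (195). For CML38, called in brl3-2 and not in WT, the response was larger in brl3-2 by 0.92 ± 0.68, with a 95% interval from -0.58 to 2.42 that includes 0 (edgeR adjusted p = 1.0). Leaving out 1 library moved this difference between 0.14, without WT mock 2, and 1.35, without WT mock 1. For ZAT12, called in WT and not in brl3-2, it was smaller in brl3-2 by a log2 difference of -0.35 ± 0.31 (95% interval -1.03 to 0.34), a difference that was -0.10 without brl3-2 zeocin 3. For ZAT10 the responses differed by 0.03 ± 0.43 (95% interval -0.91 to 0.96). These data therefore do not show that either gene answered differently in the mutant, and the intervals do not show that the answers were alike.

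Other genes of the same families and of the same kind of response were read from lists. The lists were chosen with earlier results of these data known. Over all tested genes, 7.2% were called higher and 3.04% lower in the mean over genotypes. Of 12 tested genes among 15 other ZAT and AZF zinc finger genes, 4 rose and none fell in the mean over genotypes (median log2 change 0.35). AZF2 rose by 0.94 ± 0.09, AZF3 by 1.21 ± 0.13, AT3G60580 by 1.29 ± 0.23 and AT3G46080 by 3.21 ± 0.35 (edgeR adjusted p = 0.0031 or less). AT3G46080 went from 0.190 ± 0.118 to 2.68 ± 0.909 CPM in WT (SD, n = 3), so the largest change of the family was in a gene with few reads in mock. Exons of another gene on the opposite strand cover 45.3% of the AZF3 exons. AZF2 and AZF3 encode relatives of ZAT10 known from salt and abscisic acid responses.

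Of 25 tested genes among 36 other calmodulin-like genes, 5 rose and none fell (median 0.02). Of all tested genes, 7.2% were called higher and 3.04% lower. CML9 rose by 1.02 ± 0.14, CML11 by 1.74 ± 0.14, AT3G29000 by 2.58 ± 0.26 and AT3G10190 by 0.57 ± 0.13 (edgeR adjusted p = 0.012 or less). CML11 stood at 8.67 ± 2.60 CPM in WT mock and 28.5 ± 0.976 CPM in WT zeocin, and CML9, known from stress and defence responses, at 38.1 ± 11.2 and 76.5 ± 12.9 CPM (SD, n = 3). AT2G41410 was the fifth, and its call was lost in 4 of 18 alternatives. AT3G01830, of the same list, had 0.264 ± 0.179 and 0.287 ± 0.0698 CPM in these groups and did not pass the test (-0.03 ± 0.43, edgeR adjusted p = 0.98). Exons on the opposite strand cover 58.1% of its exons. Of the 7 calmodulin genes, CAM1 to CAM7, none was called (median 0.07), and their changes lay between -0.01 and 0.25. Calmodulin genes encode near-identical proteins, and whether reads were split or lost among the genes was not tested.

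Of 17 tested genes among 23 rapid touch, wound and stress genes, 7 rose and none fell (median 0.53). The shares called over all tested genes were again 7.2% higher and 3.04% lower, and this list too was chosen with earlier results known. XTH22, also called TCH4, a touch gene that encodes an enzyme of the cell wall, rose by 3.36 ± 0.19 (edgeR adjusted p = 1.5e-07), from 16.8 ± 6.78 to 157 ± 15.6 CPM in WT and from 14.6 ± 3.18 to 164 ± 10.3 CPM in brl3-2 (SD, n = 3). Its 6 zeocin libraries, of which the lowest stood at 144 CPM, lay above its 6 mock libraries, of which the highest stood at 22.0 CPM, whereas TCH2 and TCH3 did not pass the test. WRKY33, a regulator of defence genes, rose by 1.26 ± 0.12, and the CCCH zinc finger genes SZF1 and CZF1 by 0.92 ± 0.06 and 0.75 ± 0.08 (edgeR adjusted p = 3.7e-05 or less). ERF5, ERF6 and ERF104, ethylene response factor genes, also rose. The jasmonate genes JAZ1 and OPR3, the oxidase gene RBOHD and DREB2A were not called. Of 15 tested genes of calcium input and upstream regulation, MPK3, a kinase of stress signalling, rose by 0.44 ± 0.07 and CAMTA3 by 0.30 ± 0.07, while MCA1, a mechanosensitive channel gene, fell by 0.15 ± 0.04 (edgeR adjusted p = 0.0014, 0.021 and 0.038). Their changes were small, and those of CAMTA3 and MCA1 missed the threshold without brl3-2 mock 2 (0.27, edgeR adjusted p = 0.054, and -0.13, 0.12) and in 4 and 9 of 18 alternatives in all. In brl3-2 against WT no gene of these lists was called in mock, under zeocin or as the mean.

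**Figure D4:**
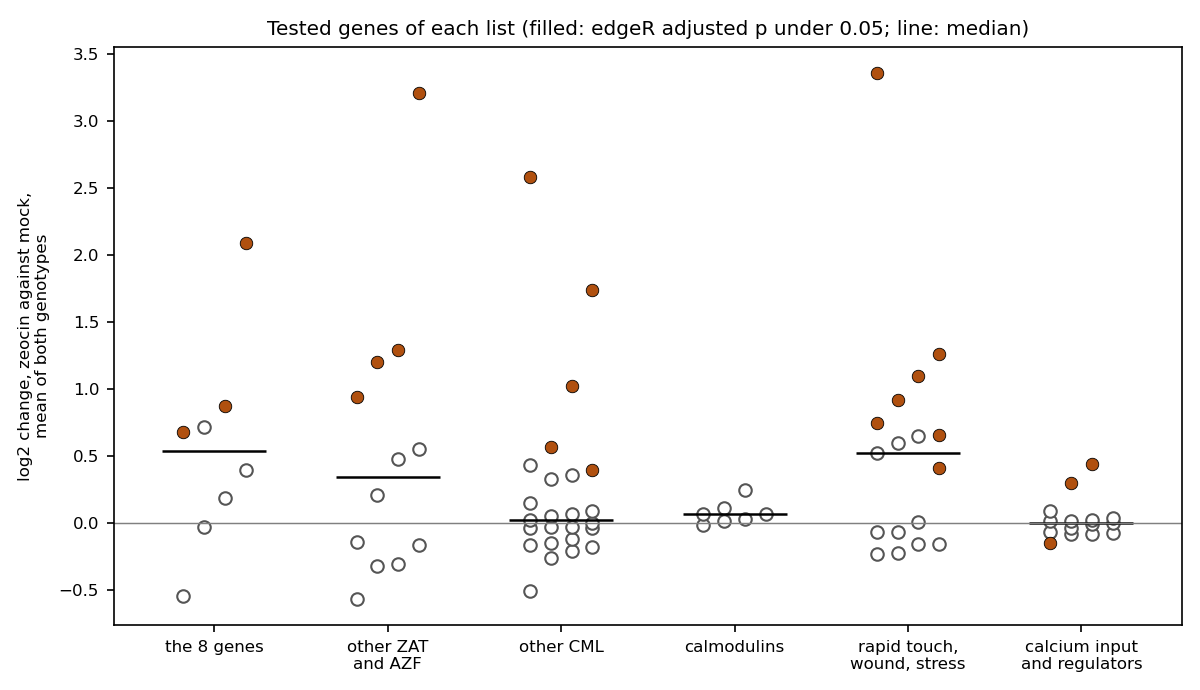
Log2 change with zeocin, averaged over both genotypes, of each tested gene of the 8 described genes and of the 5 related lists. Filled points passed the edgeR test at an adjusted p under 0.05, and lines are medians (0.54 for the 8 genes, 0.35 for other ZAT and AZF genes, 0.02 for other calmodulin-like genes, 0.07 for calmodulins, 0.53 for rapid touch, wound and stress genes and 0.00 for calcium input and regulators).

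The genes most like each of the 8 over the 12 libraries were found by the root mean square (RMS) difference between profiles of log2 CPM, each centred on its own mean. For CML38 the nearest were AT1G02700 (RMS 0.398) and AGL101 (0.491), against an SD of the CML38 profile of 1.33. AT1G02700 stood at 0.467 ± 0.316 CPM in WT mock and 1.69 ± 0.590 CPM in WT zeocin (SD, n = 3), so it shared the direction at a far lower level. AGL101 stood lower still, at 0.0600 ± 0.0913 and 0.426 ± 0.108 CPM in these groups, so its profile rests on few reads. ZAT12 was nearest to ATG8E, an autophagy gene (0.195), and ARAC9, a small GTPase gene (0.197). ATG8E went from 138 ± 34.2 to 220 ± 5.05 CPM in WT. ZAT10 was nearest to AT2G19060 (0.239) and AT1G66180 (0.247), TCH3 to the ureide permease gene UPS2 (0.326) and CYP72A8 (0.342), and TCH2 to AT3G25600, an EF-hand gene of the calmodulin-like list (0.176), and BOR4 (0.188). UPS2 too had few reads, at 0.506 CPM in WT mock and 0.731 CPM in WT zeocin. ZAT6 was nearest to AT2G37750 (0.137) and CYP72A14 (0.140). For CML37 and CML39, whose counts were few, the nearest genes were GLR2.5 (0.449) and BEE1 (0.507), and AT3G15960 (0.561) and AT2G26750 (0.575). Among the 8 themselves, the member nearest to TCH3 was ZAT10 (0.431), which ranked 15 among all genes, the member nearest to CML38 was TCH3 (0.712), at rank 50, and that nearest to CML39 was also TCH3, at rank 13. For ZAT10 the nearest member, ZAT12, stood at rank 293, and for CML37, ZAT12, ZAT6 and TCH2 the nearest stood at ranks 541, 2664, 13930 and 14355.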

How the data were processed

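RNA-seq read counts were analysed for 12 libraries of root tips, each described as sequenced in 2 runs. The authors deposited 1 table of raw read counts per gene. The submitters' processing notes name TAIR10 as the build, HISAT2 2.1 and featureCounts 1.6.2 besides FastQC 0.11.2 and Trimmomatic 0.38, and also edgeR 3.34.1. Not given in the sources used here are their settings, the use of strand, and whether counts of the 2 runs were added. Per the labels' protocols, libraries were made with a stranded mRNA kit. The row without a gene name, at most 0.00393% of a library, was left out. Replicates of a group were checked for duplicated libraries. All pairs differed beyond sampling noise (chi-square over its degrees of freedom 7.80 to 98.5), so none was left out as a duplicate. The largest values, 91.9 and 98.5, were for the pairs with WT mock 3.

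The fits were made with edgeR 4.0.16 in R 4.3.3 (filterByExpr, minimum count 10 and minimum total 15, TMM, quasi-likelihood, 1 coefficient per group, all 12 libraries in 1 fit, two-sided). Adjusted p is Benjamini-Hochberg over 19437 genes, and genes were called under 0.05. SEs were taken from the F statistics, as the size of the change over the root of F. P-values judge a difference between groups against the spread between these libraries. Alternatives used DESeq2 1.42.0, limma 3.58.1, RLE factors, no filter, other sets of libraries and a replicate block. Numbers were to be taken as pairs where the deviations of same-numbered libraries correlated above 0.1 in every pair. In no contrast did they (closest in genotype in mock, at 0.288, 0.0953 and 0.399). The pipeline was tested on simulated data.

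The 8 genes and the related lists were chosen with earlier results of these data known. Named genes were the 8, up to 4 called genes per list and contrast with the smallest adjusted p, CAM1, CAM2, AT2G41090 and AT3G01830 as chosen comparisons, the 2 nearest profiles per gene, and BRL3 and SMR7 as checks. AT2G41410, CML30, AT3G59440, AT1G12310, AT1G18530, AT1G32250, AT4G35280, the ERF genes and uncalled genes of the stress list were named after their values were seen. Coordinates, exon lengths and sequences are from RefSeq (TAIR10.1), matched by locus identifier. Of 116 list names, 76 are in that table, and other genes are given by identifier.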

Additional observations from a re-analysis of the deposited data

How the results depend on the processing

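The 8 genes were refitted under 8 kinds of alternative in 7 contrasts, which gave 1038 values. Of these 1010 kept the direction and the side of the threshold, or were not called in either fit, 19 lost a call, 9 gained one and 0 reversed a call. In the mean over genotypes CML38 (1.88 to 2.48, largest adjusted p 0.0079) and ZAT12 (0.61 to 0.81, largest 0.046) were called in 18 of 18 alternatives, and ZAT10 in 15 of 18 (0.72 to 1.04). ZAT12 in WT lost its call with RLE factors (adjusted p 0.054), limma-voom (0.055), the replicate block (0.085) and without both WT libraries numbered 3 (0.11). CML38 in WT was called by limma-voom (2.00, 0.015). ZAT10 in brl3-2 was called by DESeq2 (0.88, adjusted p 0.0497, just inside the threshold), with the 2 groups alone (0.89, 0.031) and without both WT libraries numbered 3 (0.89, 0.030).

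With the replicate number as a block, ZAT10 was called in WT (0.88, 0.038) and in brl3-2 (0.95, 0.028). Same-numbered libraries correlated at 0.242, 0.0117 and 0.589 in WT, and 1 library of 12, brl3-2 mock 3, correlated best with its own number in every other group. The block left 1 gene lower in brl3-2 under zeocin (3 without it) and 11 lower in the mean of treatments (6).

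Over all genes, calls in the order higher and lower were 792 and 175 for zeocin in WT, 840 and 205 in brl3-2, 1400 and 590 for the mean, 4 and 1 for genotype in mock, 5 and 3 under zeocin and 5 and 6 for the mean of treatments. DESeq2 called 291 genes lower in WT, 357 lower in brl3-2, 6 lower for genotype in mock, 5 lower under zeocin, and 13 higher and 15 lower for the mean of treatments. Limma-voom called 2 lower for genotype in mock. With the 2 groups compared alone, 487 genes were higher and 79 lower in WT, 324 lower in brl3-2, 1 higher for genotype in mock and 3 higher under zeocin. Without both WT libraries numbered 3, 372 were lower in brl3-2, 2 higher for genotype under zeocin and 901 lower for the mean over genotypes. Leaving out 1 library gave 579 to 1059 higher and 93 to 340 lower in WT, 606 to 1021 and 100 to 302 in brl3-2, 1121 to 1824 and 392 to 941 for the mean, 3 to 4 and 1 for genotype in mock, 3 to 5 and 1 to 3 under zeocin, and 5 to 6 and 3 to 7 for the mean of treatments. The cause was not tested. Depth limits CML37 and CML39, and with 3 libraries per group changes in TCH3 and CML38 are imprecise in mock.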

Other observations

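Markers of the root moved with zeocin in a few cases. In the mean over genotypes WOX5, which marks the quiescent centre, fell by 0.96 ± 0.24 on the log2 scale (edgeR adjusted p = 0.023), SHR, a regulator of radial pattern, fell by 0.24 ± 0.06 (0.028), and RHD6, a regulator of root hair cells, fell by 0.63 ± 0.13 (0.0067). WOX5 stood at 0.260 to 0.930 CPM over the 12 libraries, and its call was lost in 6 of 18 alternatives and that of SHR in 7, among them the fit without brl3-2 mock 2 (-0.24, edgeR adjusted p = 0.074). The other 3 root tip markers and the root hair genes EXPA7 and COBL9 were not called. The part of these markers in the changes of the ZAT and calmodulin-like genes was not tested.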
